A study of Leucocroton havanensis and Lasiocroton microphyllus with 3 samples.

Results

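Of 58990 leaf contigs, 110 had at least 1000 read counts in the field leaf of Lasiocroton microphyllus and at most 2 in the field leaf of Leucocroton havanensis. A contig is a transcript sequence pieced together from overlapping reads. The members were chosen by these raw counts, so their difference between the species is the rule itself and is described here without a test. They made up 0.186% of all contigs and 0.986% of the 11153 contigs that reached 1000 counts in L. microphyllus. The deposited tables identify contigs by number and pair none with a gene name or sequence. Neither gene functions nor sequences are therefore given.

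Leucocroton havanensis is a Cuban shrub of the spurge family (Euphorbiaceae) that hyperaccumulates nickel, and Lasiocroton microphyllus is a relative labelled as not accumulating it. The series holds 3 leaf samples with 1 polyA library each, and no genetic modification is recorded in any of them. The compared samples are a field leaf sample of L. havanensis collected in 2014 and a field leaf sample of L. microphyllus collected in 2015 at another site, with no plant ages or treatments in the labels. The third was L. havanensis kept in vitro on agar with NiSO4 added at 500 mg/L. It supplied the reads from which the reference contigs were assembled, and its own counts were not analysed here. Species, site, year and library cannot be told apart, and the tissue label could not be checked against leaf markers because contigs carry no names. The libraries held 94247756 counts (L. havanensis) and 76372207 counts (L. microphyllus). With 1 library per group nothing can be checked against replicates, and p-values are left out. Intervals are exact 95% intervals. Those of counts and folds cover counting error only, and those of shares of contigs run over contigs, which are not independent replicates.

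Nickel hyperaccumulators take the metal up through the root, move it in the xylem and store it in leaf cells, largely in the vacuole bound to organic acids. Metal transporters and the synthesis of chelating molecules are the functions most often studied when such a species is compared with a non-accumulating relative. Every contig of the reference came from reads of the in vitro sample, so a contig with 0 counts in the L. havanensis field leaf is not a transcript missing from that sequence set.

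**Figure D1:**
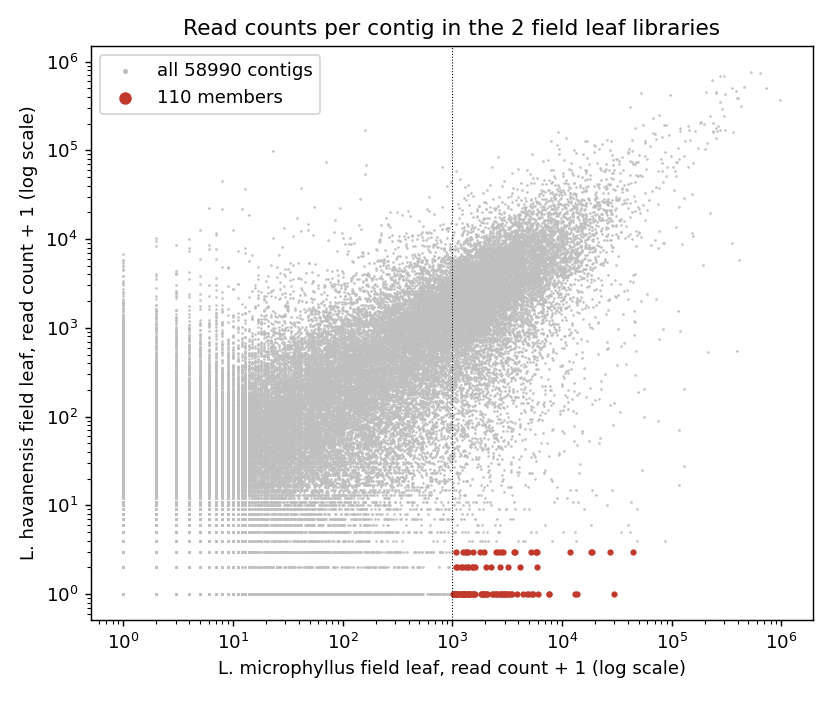
Read count plus 1 of each contig in the L. microphyllus field leaf (horizontal axis) and in the L. havanensis field leaf (vertical axis), both on log scales, with 1 library per species. Grey points are all 58990 contigs, red points are the 110 members and the dotted line marks 1000 L. microphyllus counts. The members lie along the bottom right edge, below the cloud of contigs with counts in both libraries.

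The member with the most reads in L. microphyllus was Lhav_v1_contig_4827, at 44446 counts against 2 for L. havanensis. Its level in L. microphyllus was 727 CPM (721 to 734). CPM stands for counts per 1000000 counts of a library, here after TMM normalization. It ranked 160 among all contigs of that leaf. The ratio of scaled counts was 42843, with an interval from 11859 to 353780 that is wide because it rests on 2 counts. Lhav_v1_contig_17684 was next, at 30130 counts against 0. It stood at 493 CPM (488 to 499) and ranked 248 in L. microphyllus. Its level was at least 19362-fold higher in L. microphyllus, taking for L. havanensis the 3 counts (0.0255 CPM) still possible where 0 were seen. These 3 counts are a one-sided 95% limit, and the lower end of the exact two-sided interval, which compares with the interval of Lhav_v1_contig_4827, was 15745-fold. Both values depended on the scaling of the libraries: scaled to total counts, the ratio of Lhav_v1_contig_4827 was 27424 and the bound of Lhav_v1_contig_17684 was 12394.

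Below these, 6 more members passed 10000 counts in L. microphyllus. The first of these had 27558 L. microphyllus counts and 2 L. havanensis counts. Another had 18960 and 2, and the next had 18349 and 2. The remaining ones had 13792 and 0, 13248 and 0, and 11841 and 2 counts. These 8 most abundant members were also the only members among the 1000 most abundant contigs of the L. microphyllus leaf. They held 42.3% of the members' L. microphyllus counts, and 13 members sufficed for 50% of them. None was among the 100 most abundant contigs of that leaf.

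The other 102 members were of moderate abundance. Over all 110, the L. microphyllus count ran from 1011 to 44446, with a median of 1942 and quartiles of 1299 and 3294.5. In CPM the range was 16.5 to 727 and the median 31.8. The 11043 contigs that reached 1000 L. microphyllus counts without meeting the ceiling in L. havanensis had a higher median of 2584 counts and reached 968390. Of the members, 93 lay among the 10000 most abundant contigs of the L. microphyllus leaf. All members together held 421832 counts, or 0.552% of that library (0.551% to 0.554%).

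**Figure D2:**
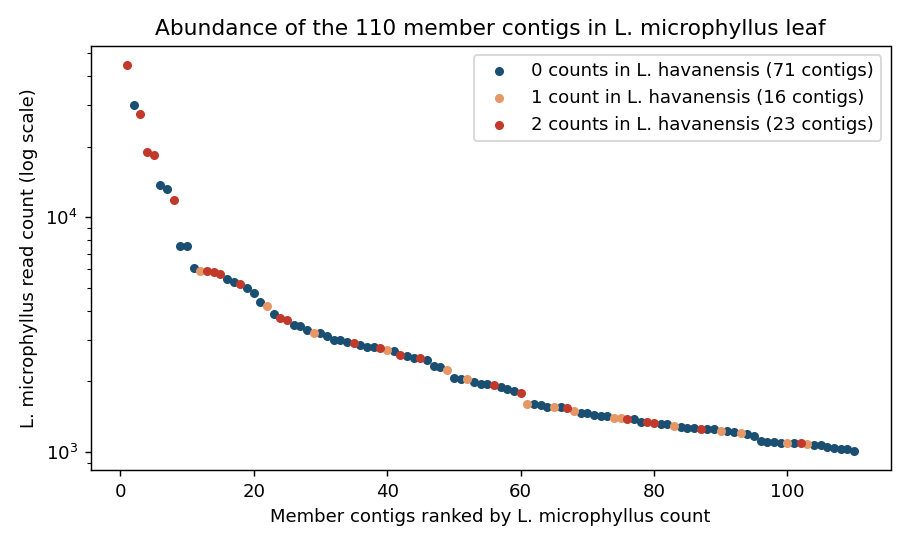
L. microphyllus read count (log scale) of each of the 110 members, ranked from the most to the least abundant and coloured by the count in L. havanensis. The 8 members above 10000 counts had either 0 or 2 L. havanensis counts, and the rest fall smoothly from 7580 to 1011 L. microphyllus counts.

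In the L. havanensis field leaf, 71 members had 0 counts, 16 had 1 and 23 had 2. The sum was 62 counts in a library of 94247756, or 6.58e-05% of it (5.04e-05% to 8.43e-05%). Scaled and summed over the members, L. microphyllus exceeded L. havanensis 13117-fold (10232 to 17108), a value whose direction and minimum size are set by the rule. Among the 71 members at 0, the bound ran from at least 650-fold to at least 19362-fold, with a median of 1194, against the one-sided limit of 3 counts. The lower ends of their exact two-sided intervals ran from 527 to 15745, with a median of 970. Among the 39 members with 1 or 2 counts, the ratio ran from 1052 to 42843, with a median of 2894. These folds are on the TMM scale, and scaling to total counts lowered the summed one to 8396.

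The few most abundant members and the rest were set side by side for their L. havanensis counts, as a description. Of the 8 members above 10000 counts, 3 had 0 counts in L. havanensis (37.5%) and 5 had 2. Of the 102 below, 68 had 0 (66.7%), 16 had 1 and 18 had 2. Per 1000000 L. microphyllus counts, the L. havanensis leaf gave 56.1 counts in the first set and 214 in the second. Both rates are bounded by the rule, since no member may exceed 2 counts however abundant it is. The median L. microphyllus count was 1858 for members at 0, 1526.5 for those at 1 and 2918 for those at 2.

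A count of 2 was more frequent than a count of 1 in the L. havanensis library as a whole. Over all contigs, 521 had 1 count, 921 had 2, 486 had 3 and 826 had 4. Even values made up 56.6% (55.7% to 57.5%) of the 11400 contigs with 1 to 20 counts. Over 100 and up to 1000 counts the share was 50.4% (49.6% to 51.1%). In L. microphyllus the share of even values was 52.6% (51.8% to 53.3%) from 1 to 20 counts and 49.7% (48.9% to 50.6%) over 100 and up to 1000. The libraries were sequenced from both ends of each fragment, and the sources used here do not say whether the reads of a fragment were counted apart. The part this has in the excess was not tested. If a pair of counts is taken as 1 observation, the interval of the summed fold widens to 9241 to 19305. The bounds of the members at 0, set against 3 such pairs, would then run from 325 to 9681, with a median of 597, and a ceiling of 2 counts may stand for as little as 1 fragment.

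**Figure D3:**
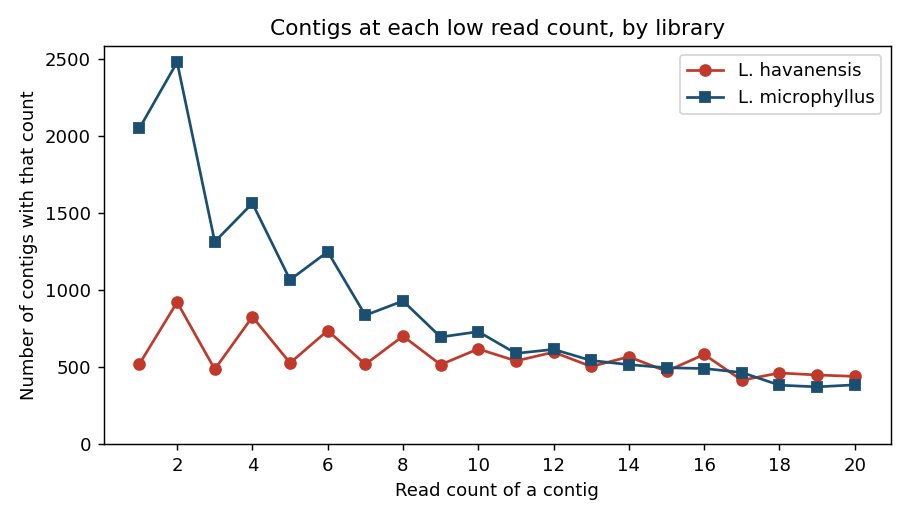
Number of contigs at each read count from 1 to 20 in the field leaf libraries of L. havanensis (red circles) and L. microphyllus (blue squares). In L. havanensis the line alternates, with 521 contigs at 1 count, 921 at 2, 486 at 3 and 826 at 4. In L. microphyllus the alternation is smaller as a share of contigs (52.6% even values against 56.6%) and fades by about 10 counts.

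The limits of the rule cut through a series of contigs with no gap. Among contigs with at least 1000 L. microphyllus counts, 71 had 0 L. havanensis counts, 39 had 1 or 2, 33 had 3 or 4, 17 had 5 or 6, 17 had 7 or 8 and 20 had 9 or 10. Most contigs of that abundance were far from the ceiling, with 7420 (66.5%) over 1000 and up to 10000 L. havanensis counts. Just above the ceiling, 14 contigs had 3 L. havanensis counts, with 1423 to 87249 counts in L. microphyllus. The contig at 87249 had more reads than any member and missed the rule by 1 count. The next at 3 counts had 48402. In all, 42 contigs had 3 to 5 L. havanensis counts and together held 393180 L. microphyllus counts, or 0.515% of the library, against 0.552% for the 110 members. Of these 42, 5 exceeded 30000 L. microphyllus counts, against 2 of the members. At the other limit, 12 members had 1011 to 1098 L. microphyllus counts, and 11 contigs that met the ceiling had 909 to 999.

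**Figure D4:**
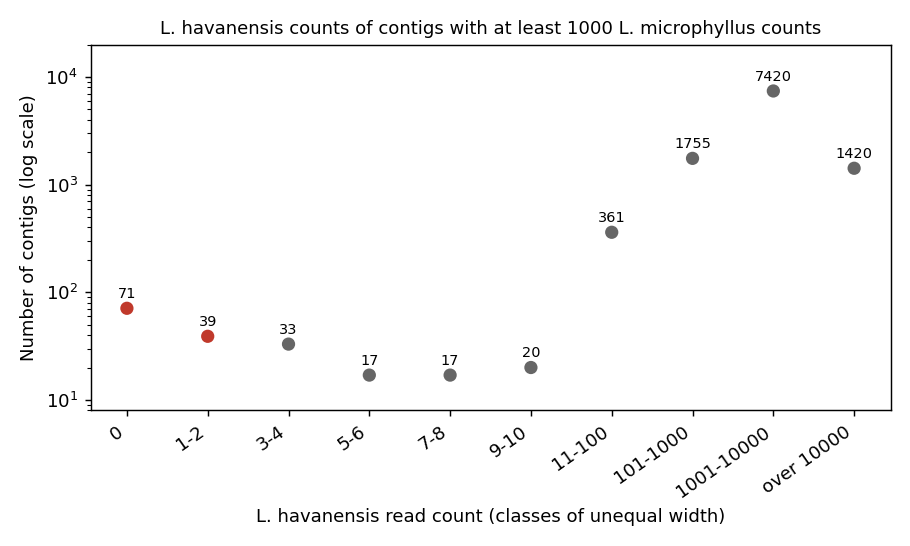
Number of contigs (log scale) in classes of L. havanensis read count, for the 11153 contigs with at least 1000 L. microphyllus counts. Red points are the members (71 at 0 and 39 at 1 or 2 counts), grey points the other contigs. Classes are of unequal width, and the numbers per class of 2 counts go from 39 to 33, 17, 17 and 20.

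The share of contigs that were members was largest among the least abundant ones. From 1000 to under 2000 L. microphyllus counts, 58 of 4176 contigs were members, or 1.39% (1.06% to 1.79%). From 2000 to under 5000 they were 33 of 4196, or 0.786% (0.542% to 1.1%). From 5000 to under 10000 they were 11 of 1641, or 0.67% (0.335% to 1.2%), and from 10000 they were 8 of 1140, or 0.702% (0.303% to 1.38%). The intervals of the last 3 classes overlap, and so do those of the first class and each of the others. With a ceiling of 10 L. havanensis counts the order was not the same, since 2.02% (1.28% to 3.01%) of the most abundant class passed, against 2.39% (1.95% to 2.9%), 1.36% (1.03% to 1.76%) and 1.04% (0.605% to 1.65%) in the classes below it, from the least abundant up. A fixed ceiling in counts is a stricter relative limit for abundant contigs.

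All 3818 contigs with at most 2 L. havanensis counts (6.47% of all contigs) form the pool from which the members come. Of these, 1114 had 0 counts in L. microphyllus too, 1003 had at least 1 and under 10, 1089 had 10 to under 100, 333 had 100 to under 300 and 169 had 300 to under 1000. The members were thus 2.88% of the contigs near silent in the L. havanensis leaf, and they held 68.9% of the L. microphyllus counts that fell on such contigs. The rule favours this, as it takes the most abundant ones.

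The contig number is the one value in the tables that the rule did not use. Its meaning is not given in the sources used here. Across all 58990 contigs, which are not independent, it had a Spearman rho of -0.72 with the L. havanensis count and of -0.66 with the L. microphyllus count, so low numbers went with high counts in both leaves. Members ran from number 272 to 58187, with a median of 19300 and quartiles of 10274 and 31667. The other contigs with at least 1000 L. microphyllus counts had a median of 8334 (quartiles 3823.5 and 14441.5). The other 3708 contigs near silent in L. havanensis had a median of 44092 (quartiles 31515 and 52889). The members therefore lay between the sets that share 1 of their criteria. The difference from other abundant contigs was present at each level of L. microphyllus abundance. Medians were 22466.5 for members and 11679 for the rest from 1000 to under 2000 counts, and 16777 and 8264 from 2000 to under 5000. They were 15496 and 5696 from 5000 to under 10000, and 7535 and 2919 from 10000. These classes do not match the L. havanensis count, which had a median of 2955 in the other contigs and is capped by the rule in members. As the contig number went with that count, the higher numbers of members are not independent of the rule.

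Seen along the numbering, members were a rising share of the contigs abundant in L. microphyllus, which themselves became fewer. Among numbers 1 to 10000 they were 27 of 6407 such contigs, or 0.421% (0.278% to 0.613%). The share was 0.89% (0.602% to 1.27%) among numbers 10001 to 20000 and 2.35% (1.51% to 3.48%) among 20001 to 30000. It was 5.46% (2.94% to 9.16%) among 30001 to 40000 and 13.1% (6.72% to 22.2%) among 40001 to 50000. Among numbers 50001 to 58990 it was 14.3% (4.81% to 30.3%), from 5 of 35 contigs. The share of all contigs with at most 2 L. havanensis counts rose along the same windows, from 1.36% through 2.75%, 5.16%, 6.71% and 9.61% to 14%. The median L. havanensis count of all contigs fell meanwhile from 2711 to 16. In the first 3 windows the value for all contigs lay above the interval of the members' share, and in the last 3 windows it lay within it. Members did not gather at high numbers, as the successive windows held 27, 30, 24, 13, 11 and 5 of them. As a share of all contigs they were 0.27%, 0.3%, 0.24%, 0.13%, 0.11% and 0.0556%. Their share of the contigs near silent in L. havanensis fell from 19.9% to 0.397%. Within the numbering the members were scattered, and 1 pair had adjacent numbers.

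**Figure D5:**
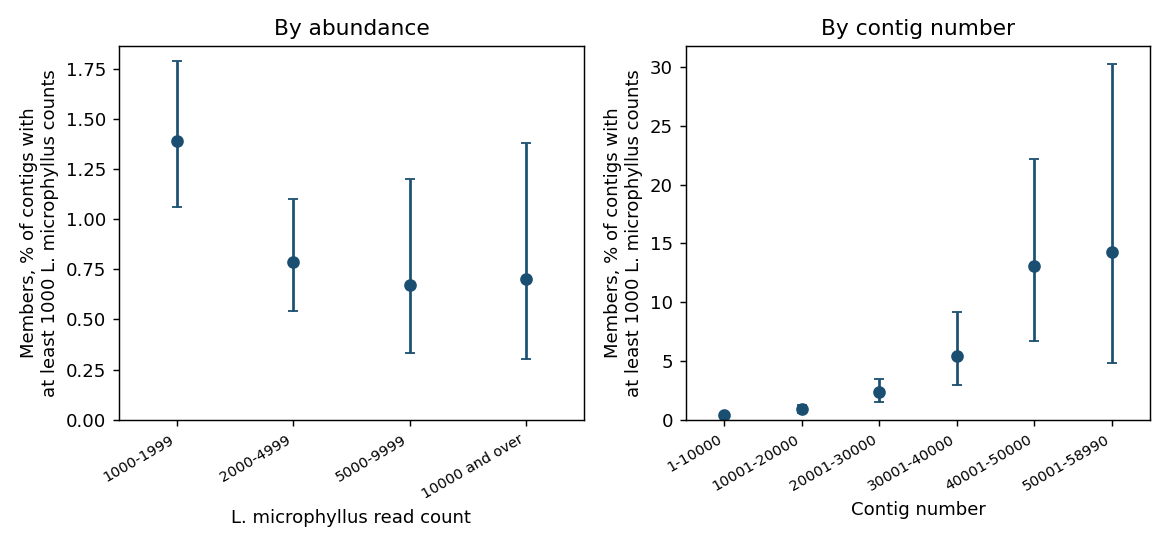
Members as a percentage of the contigs with at least 1000 L. microphyllus counts, by class of L. microphyllus count (left) and by window of contig number (right). Points are shares and bars are exact 95% binomial intervals over contigs. The share lies between 0.67% and 1.39% over the abundance classes and goes from 0.421% to 14.3% along the contig numbers.

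The reverse pattern, at least 1000 counts in L. havanensis and at most 2 in L. microphyllus, was met by 123 of 12918 contigs, or 0.952%, against 0.986% (0.811% to 1.19%) for the members. Equal counts are not equal abundances in these libraries, since a single count stood for 0.0164 CPM in the L. microphyllus library and for 0.00849 CPM in the other. With the minimum set to the 16.4 CPM that 1000 L. microphyllus counts represent after TMM, the reverse set was 44 of 8795 contigs, or 0.5% (0.364% to 0.671%). The same 1000 counts represent another CPM under each other scaling, and the minimum was set to it. With the libraries scaled to total counts (13.1 CPM), the reverse set was 90 of 11640, or 0.773% (0.622% to 0.95%). With upper-quartile scaling (13.7 CPM) it was 77 of 10976, or 0.702% (0.554% to 0.876%). With DESeq2 median-of-ratios scaling (17.2 CPM) it was 40 of 8203, or 0.488% (0.349% to 0.663%). The members' share of 0.986% was above the reverse share under each of these scalings, by an amount that depended on the scaling. The intervals run over contigs and do not measure the spread between plants, so their overlap is not read as a test. The ceiling was then also lowered to the largest whole count within the same CPM. This gave reverse sets of 32, 71, 61 and 20 contigs with TMM, total-count, upper-quartile and DESeq2 scaling. Their shares were 0.364% (0.249% to 0.513%), 0.61% (0.477% to 0.769%), 0.556% (0.425% to 0.713%) and 0.244% (0.149% to 0.376%). The members' share was above each of these shares too. Rounding down to whole counts made this ceiling 1 L. microphyllus count, and 0 with DESeq2 scaling, which is stricter than the members' own. The size of the difference therefore depended on the ceiling as well as on the scaling. Over all 58990 contigs, 7562 had 0 counts in L. microphyllus, 2049 had 1 and 2477 had 2. In L. havanensis these numbers were 2376, 521 and 921, so counts of 0 to 2 over all contigs were more frequent in L. microphyllus. These are raw counts from libraries of unequal depth, on contigs assembled from L. havanensis reads. They do not show that a transcript was absent from the L. microphyllus leaf. The difference between the members' share and the reverse share was not tested, as there is 1 library per species.

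The 2 sets were also compared by how many of their contigs were empty in the low library. Of the members, 64.5% (54.9% to 73.4%) had 0 counts in L. havanensis, and of the reverse set 67 of 123, or 54.5% (45.2% to 63.5%), had 0 in L. microphyllus. Both sets are those of the raw limits, so the shares split a range of 0 to 2 counts that the rule itself sets. The ceilings are unlike in abundance, as 2 counts are 0.017 CPM in L. havanensis and 1 count is already 0.0164 CPM in L. microphyllus. The difference was not tested. In the reverse set, 32 contigs had 1 count and 24 had 2, where the members had 16 and 23. The most abundant contig of the reverse set had 10172 L. havanensis counts, against 44446 L. microphyllus counts for the leading member, and the medians were 1584 and 1942. Reads of both species were counted on contigs of L. havanensis.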

How the data were processed

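Leaf polyA RNA libraries were made with a stranded Illumina kit and sequenced paired-end, per the labels' protocols and the series' design text. The authors deposited raw read counts per contig of a transcriptome assembled from in vitro L. havanensis reads. The aligner, the counting tool, the handling of reads that match several contigs and the use of strand are not stated in any source used here.

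Both tables list the same 58990 contigs and were joined by contig name. Scaling used edgeR 4.0.16 (TMM) in R 4.3.3 on the 50943 contigs with at least 20 summed counts, with factors of 1.25 (L. havanensis) and 0.8 (L. microphyllus). DESeq2 1.42.0 gave an alternative scaling. Intervals are exact (Clopper-Pearson for shares and folds, Poisson for CPM), computed with scipy 1.17.1. Reads copied by PCR are not independent. Selection and intervals were run on simulated Poisson counts with a shared mean profile for both libraries and planted near-silent contigs. Those data held no paired reads and no other difference between the species, so they check the code only. Abundance is not corrected for contig length. The members, lists and thresholds were chosen with earlier results of these data known. Contigs named are the 2 members with the most L. microphyllus counts. Near-identical contigs may share or split reads.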

Additional observations from a re-analysis of the deposited data

How the results depend on the processing

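The number of members followed the limits: it was 71 with a ceiling of 0 L. havanensis counts, 152 with 5 and 197 with 10, and 182 and 52 with minimums of 500 and 2000 L. microphyllus counts. The members' share of L. microphyllus counts was 0.281% with a ceiling of 0 and 1.39% with 10, 0.494% without the most abundant member and 0.594% without the 10 most abundant contigs of the library. Their share of contigs with at least 1000 L. microphyllus counts was 0.637% with a ceiling of 0 and 1.77% with 10. The summed fold was 8396 with total-count and 9254 with upper-quartile scaling, both below the interval with TMM, since a scaling multiplies the fold by the ratio of the library sizes it sets. It was 14442 with DESeq2 scaling, 13060 with no filter for TMM and 12126 without the most abundant member. The median contig number was 22070 with a ceiling of 0, 19903 with 10 and 15713 with a minimum of 2000, all within its interval over contigs. The changes in number and share follow from the limits and contigs left out.

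No paired analysis was possible because each group has 1 library, with none to leave out and no measure of the spread between plants. Depth limits the L. havanensis side, where 0 counts allow up to 3 by a one-sided limit, or 0.0255 CPM, and somewhat more by the exact two-sided interval. The interval with pairs of counts taken as 1, and the reverse set at equal CPM, were chosen after the data were seen.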
